A study of Mus musculus with 6 samples.

Results

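The 9 genes described here encode proteins that cut the Notch receptor free from the cell membrane, control its supply at the surface, or turn its released fragment into a transcription factor. They are Adam10, Adam17, Psen2, Ncstn, Aph1a, Psenen, Numb, Rbpj and Maml1, and all probe sets that the array's annotation assigns to one of these symbols were taken, whatever their values. This gave 23 of the 45037 probe sets that are not controls, for 9 of 18193 named genes. Of the 23, 20 passed a filter on dim probe sets and were tested, and each of the 9 genes had at least 1 of them. Between hair bulbs without functional Notch1 and control bulbs, 0 of these 20 probe sets passed the test, beside 3.77% of all tested probe sets. In the same comparison the Notch1 receptor itself fell and several genes that regulate the receptor-cutting proteases changed. Their calls, each on its brightest probe set, were lost when either of the 2 arrays without functional Notch1 was left out.

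Total RNA from mouse hair follicle bulbs at postnatal day 9 was hybridised to 6 one-colour oligonucleotide arrays. Bulbs called emN1 (2 arrays) came from skin areas where Notch1 had been deleted during embryonic life, and the labels state that they lack functional Notch1. Bulbs called anN1 (2 arrays) came from areas where the deletion took place only in anagen, the growth phase of the hair cycle, and the labels state that functional Notch1 was still present. The remaining 2 arrays held wild-type bulbs, and the series' design uses both anN1 and wild-type as controls. Both emN1 and anN1 areas thus carry a Notch1 deletion, made at different stages. The labels name neither the recombinase nor the promoter behind it, nor the strain, and do not say whether animals were pooled or areas shared an animal. Replicates are called biological without mention of separate mice, so the p-values here speak only for the spread between arrays, part of which may be technical. The first emN1 and the first anN1 array were hybridised as one set and the other 4 arrays later as another. In bulk tissue, fewer cells of a type and less RNA per cell cannot be told apart.

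Notch receptors are switched on by proteolysis. When a ligand on a neighbouring cell pulls on the receptor, a membrane-bound metalloprotease of the ADAM family, chiefly Adam10, cuts off the outer part. The gamma-secretase complex then cuts within the membrane and releases the intracellular domain, which enters the nucleus and joins the DNA-binding protein Rbpj and a Mastermind coactivator such as Maml1. In the hair follicle this pathway is active in the matrix and its descendants, and it is known for keeping the shaft and root sheath lineages in order.

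Several measurements describe the arrays on which the values below rest. The brighter Notch1 probe set gave 6498 and 6292 signal units in emN1 bulbs, against 15077 and 12527 in anN1 bulbs and 23750 and 34070 in wild-type bulbs. The dimmer one gave 821 and 1561 in emN1, against 1581 and 2789 in anN1 and 2833 and 3720.4 in wild-type. Cre recombinase is the phage enzyme commonly used to delete genes in mice, and the array holds control probe sets for it. The 3' one named AFFX-CreX-3_at read 434 and 409 in emN1, 395 and 515 in anN1, and 62.4 and 79.0 in wild-type. A background limit of 112 signal units was taken from 20 bacterial control probe sets whose 120 values had a median of 24.4, so Cre lay above it in both deleted groups and under it in wild-type. Of 10 listed markers of the hair matrix and shaft, the labelled tissue, 9 were on the array. None of the 9 was under the background limit on all arrays. Their summed signal was 178228 and 177683 in emN1, 183083 and 146994 in anN1, and 136084 and 128981 in wild-type.

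**Figure D1:**
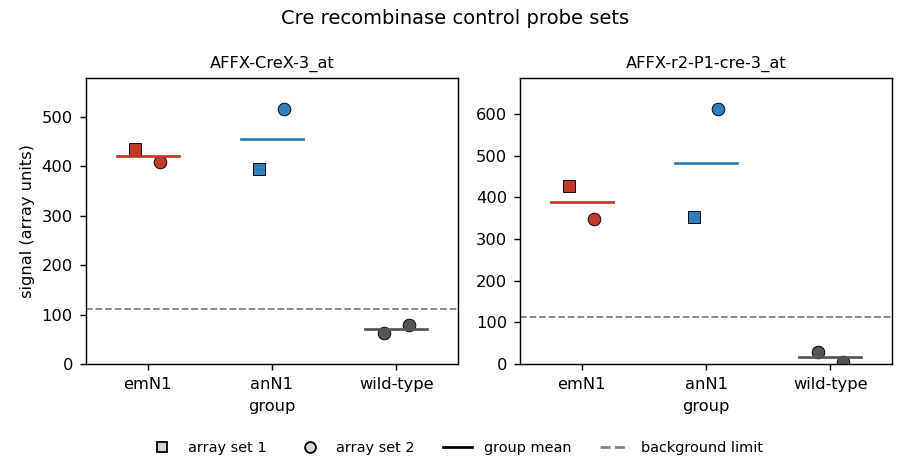
Signal of the 2 control probe sets at the 3' end of the Cre recombinase transcript on each array, in array units, by group, with squares for array set 1, circles for set 2 and lines for group means. All 4 emN1 and anN1 arrays lay above the dashed background limit of 112 and both wild-type arrays below it.

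Of the 20 tested probe sets of the Notch cleavage and nuclear complex genes, 0 rose and 0 fell in emN1 relative to the 4 control arrays in limma with Benjamini-Hochberg adjustment. Across all 27022 tested probe sets the same test called 3.77%. At an unadjusted p under 0.05 there were 3 of the 20, where the share over all tested probe sets was 16.6%. The adjusted p-values of the 20 ran between 0.153 and 0.970. Their log2 differences were above 0 for 11 (48.6% of all tested probe sets) and had a median of 0.03, beside -0.01 for all tested probe sets. The median size of the difference, whatever its sign, was 0.21 log2 units, beside 0.23 for all. Each emN1 array lay outside the controls of its own array set, in one direction, for 9 of the 20 (5 above and 4 below), beside 38.2% of all tested probe sets (18.5% above and 19.7% below). Both emN1 arrays lay outside all 4 controls for 2 of the 20, a Psen2 probe set below and an Rbpj probe set above, beside 19.3% of all (9.33% below and 9.99% above).

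A difference that misses the threshold does not show equal expression, so the 95% interval of each is given with it. For 8 of the 20 the interval held no change as large as 1.5-fold in either direction, and for 16 none as large as 2-fold. The other 4 are dim probe sets whose intervals reached beyond 2-fold: Adam10 1450104_at, Adam17 1421857_at, Psen2 1431542_at and Ncstn 1444532_at. Signals of different probe sets depend on their probes as well as on the transcript, so levels are compared only within a probe set.

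**Figure D2:**
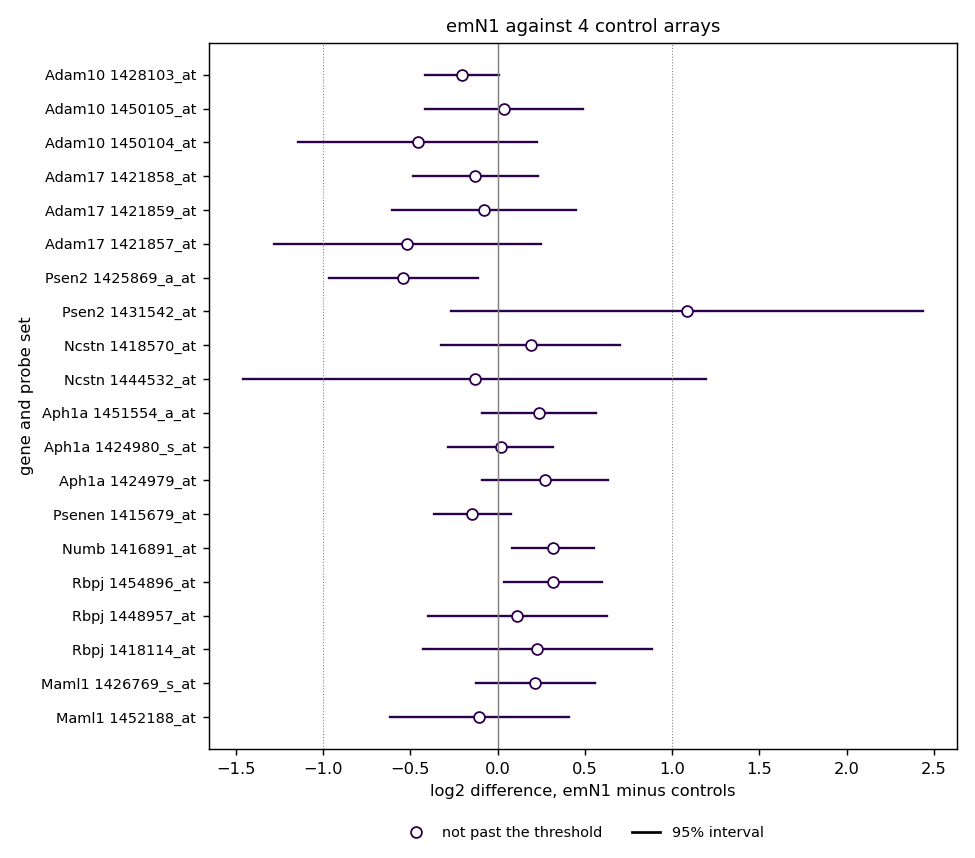
Log2 difference between 2 emN1 and 4 control arrays (x axis) for each of the 20 tested probe sets, with 95% intervals from limma and dotted lines at 2-fold. Open points mark probe sets not past the threshold, which here are all of them, and the widest interval is that of Psen2 1431542_at.

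The sheddases make the first cut. Adam10, the main protease that cuts Notch after ligand binding, gave on its brightest probe set 16881 and 20498 signal units in emN1, against 19802 and 21543 in anN1 and 24765 and 23836 in wild-type. Both emN1 arrays were below the controls of their own set, but the second emN1 array was above the first anN1 array. The log2 difference was -0.20 (SE 0.09, interval -0.42 to 0.01, limma adjusted p = 0.323). The group means were 18690 in emN1, 20672 in anN1 and 24300.2 in wild-type, and emN1 and anN1 overlapped. Against wild-type alone the difference was -0.28 (SE 0.11, limma adjusted p = 0.335). The other tested Adam10 probe sets differed by 0.04 (1450105_at) and -0.46 (1450104_at). The remaining one, 1460083_at, was under the background limit on all 6 arrays and was left out by the filter on dim probe sets. Fitted without that filter it differed by 1.36, against the direction of the brightest probe set (SE 0.55, interval 0.12 to 2.59, unadjusted p = 0.0346, limma adjusted p = 0.344).

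Adam17, which sheds growth factors and cytokines from the cell surface and can also cut Notch, gave 2386 and 2365 signal units in emN1 on probe set 1421858_at, against 2639 and 2382 in anN1 and 3016 and 2349.8 in wild-type. Groups overlapped, since the second wild-type array was the lowest of the 6. Its log2 difference was -0.13 (SE 0.16, interval -0.48 to 0.23, limma adjusted p = 0.765). The dim probe set 1421857_at gave 118 and 233 in emN1, 176 and 418 in anN1, and 333 and 286 in wild-type. There emN1 was lower than the controls within each set, by 0.52 log2 units (SE 0.33, limma adjusted p = 0.510), and its spread was wide. The remaining probe set, 1421859_at, differed by -0.08 (SE 0.23, interval -0.60 to 0.45, limma adjusted p = 0.919). It gave 493 and 827 in emN1, 444 and 808 in anN1, and 1057 and 1069 in wild-type, so emN1 was above anN1 in each set.

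Gamma-secretase is a complex of a presenilin, nicastrin, an Aph1 protein and Pen-2. Psen2 encodes one of the catalytic presenilins, and its probe set 1425869_a_at gave 776 and 1261 signal units in emN1, against 1413 and 1718 in anN1 and 1508 and 1561 in wild-type. Both emN1 values lay under all 4 control values. The log2 difference was -0.54 (SE 0.19, interval -0.97 to -0.11), with an unadjusted p of 0.0189 and a limma adjusted p of 0.183. Within the first array set emN1 differed from anN1 by -0.85 and within the second by -0.44, while the 3 controls of the second set spanned 0.19 log2 units. Against anN1 alone the difference was -0.65 (limma adjusted p = 0.223), and against wild-type alone it was -0.38 (limma adjusted p = 0.567). A second Psen2 probe set, 1431542_at, differed by 1.09 in the other direction (SE 0.59, limma adjusted p = 0.423). It gave 204 and 360 in emN1, 206 and 42.9 in anN1, and 149 and 104 in wild-type, so 2 of its 6 values were under the background limit. The 2 probe sets therefore do not give Psen2 a single direction.

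Psen2 has 2 annotated transcription starts in RefSeq (GRCm38.p6), and the 250 bases before each are shown because it was the only one of the 9 genes with the heptamer that Rbpj is known to bind in them. The outer region is chr1:180256301-180256550 and the inner one chr1:180245951-180246200, both on the minus strand and written 5' to 3' along the gene. GTGGGAA was searched on both strands, and capitals mark its match, here read as the complement TTCCCAC.
Psen2, outer start: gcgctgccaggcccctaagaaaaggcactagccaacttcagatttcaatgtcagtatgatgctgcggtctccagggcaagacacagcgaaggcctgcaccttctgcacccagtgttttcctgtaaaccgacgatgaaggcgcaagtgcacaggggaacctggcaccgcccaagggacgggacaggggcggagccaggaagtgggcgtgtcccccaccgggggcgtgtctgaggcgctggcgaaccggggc
Psen2, inner start: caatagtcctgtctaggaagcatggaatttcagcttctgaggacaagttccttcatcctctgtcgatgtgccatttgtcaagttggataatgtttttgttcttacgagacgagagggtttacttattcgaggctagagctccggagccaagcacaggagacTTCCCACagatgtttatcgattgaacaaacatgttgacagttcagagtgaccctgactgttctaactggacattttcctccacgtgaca
The match began 89 bases before the inner start. Of the 14 upstream regions listed for the 9 genes, 1 held the heptamer, beside 5.42% of 32851 such regions of all genes. A match of letters is a description and does not show binding. CpG dinucleotides numbered 15 in the outer and 7 in the inner region, beside a median of 6 over all regions.

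Ncstn encodes nicastrin, the large glycoprotein that admits substrates to the complex. Its brighter probe set gave 501 and 780.2 signal units in emN1, against 421 and 706 in anN1 and 623 and 775 in wild-type. Within each set the emN1 array was above its controls, but across sets the groups overlapped. The log2 difference was 0.19 (SE 0.22, interval -0.32 to 0.70, limma adjusted p = 0.755). The dim probe set 1444532_at differed from anN1 by -1.54 in the first array set and by 0.70 in the second, so its 2 emN1 arrays moved in opposite directions.

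Aph1a encodes the scaffold on which the complex assembles. Its brightest probe set, 1451554_a_at, gave 8406 and 5550.4 signal units in emN1, against 6881 and 4048 in anN1 and 5032 and 5455 in wild-type. In signal, the emN1 array was the highest of each set, by 0.29 log2 units over anN1 in the first set and 0.45 in the second. The difference from all controls was 0.24 (SE 0.14, interval -0.09 to 0.57, limma adjusted p = 0.471), from anN1 0.37 (limma adjusted p = 0.262) and from wild-type 0.04 (limma adjusted p = 0.941). The other Aph1a probe sets differed by 0.02 (1424980_s_at) and 0.27 (1424979_at) from the controls.

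Psenen encodes Pen-2, the small subunit that completes the complex and triggers presenilin's own cleavage. Its single probe set gave 14685 and 10835 signal units in emN1, against 16808 and 11469 in anN1 and 11132 and 12528 in wild-type. Both arrays of the first set were the highest of the 6, and within each set emN1 was the lowest. The log2 difference was -0.14 (SE 0.10, interval -0.37 to 0.08, limma adjusted p = 0.530), a change of at most 1.29-fold at the interval's edge.

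**Figure D3:**
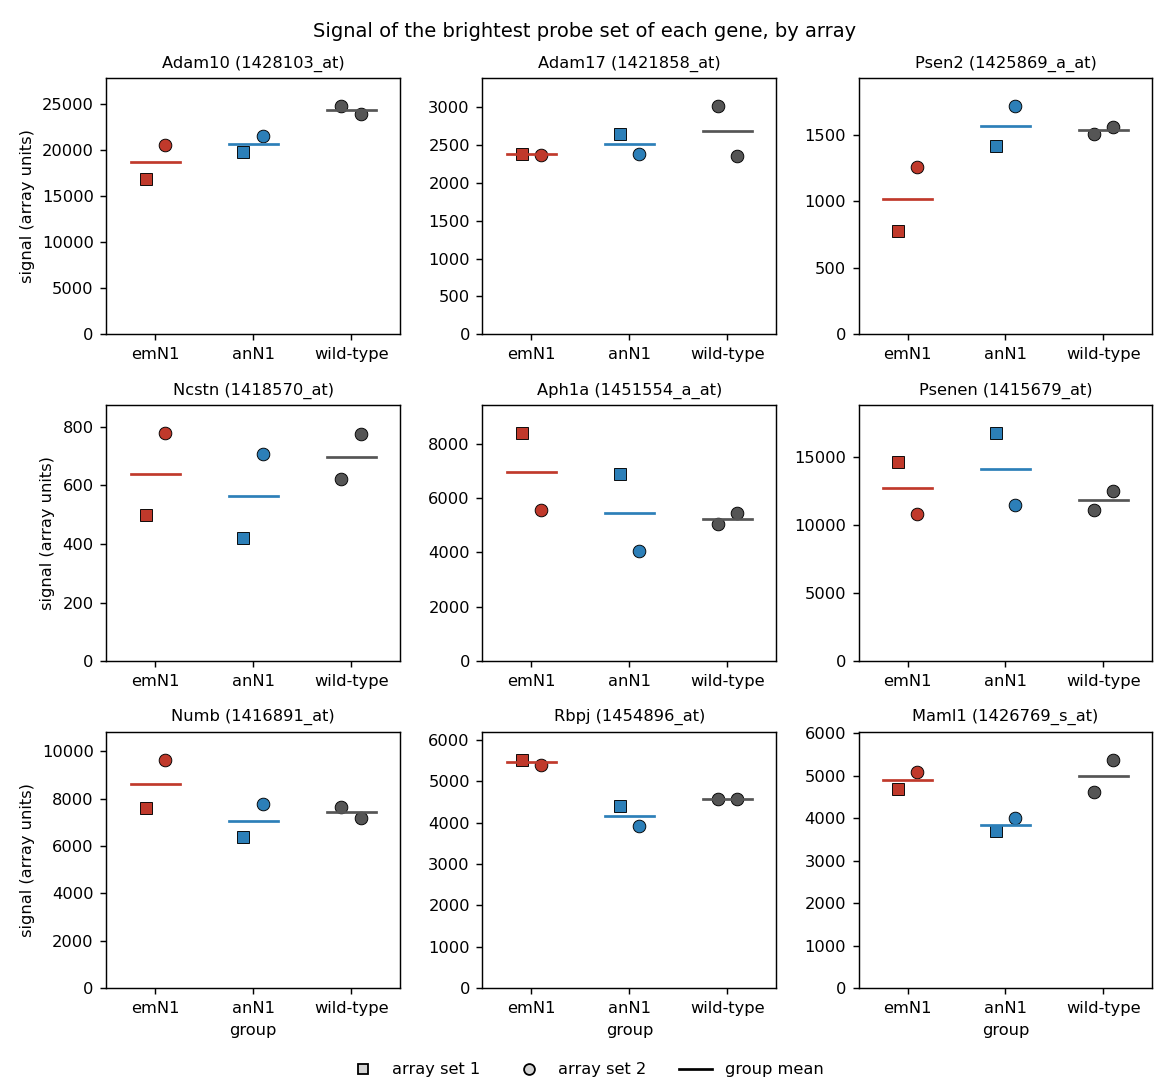
Signal of the brightest tested probe set of each of the 9 genes on every array, in array units from 0, by group, with squares for array set 1, circles for set 2 and lines for group means. Psen2 lay lower in both emN1 arrays than in every control (776 and 1261 against 1413 to 1718) and Rbpj higher (5531 and 5399 against 3914 to 4585); the other 7 genes overlapped.

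Numb encodes an endocytic adaptor that promotes removal of Notch from the surface and is shared out unequally at some cell divisions. Probe set 1416891_at gave 7617 and 9647 signal units in emN1, against 6358 and 7772 in anN1 and 7664 and 7179 in wild-type. Again the emN1 array was the highest of each set, although the first emN1 array lay under 2 controls of the other set. The log2 difference of 0.32 (SE 0.10, interval 0.08 to 0.55) had the smallest p among the 20 probe sets, 0.0136 unadjusted and 0.153 after limma's adjustment. It was 0.26 within the first set and 0.31 against anN1 in the second, where the 3 controls spanned 0.11. The other Numb probe set, 1425368_a_at, was under the background limit on all 6 arrays and differed by -0.75 in the unfiltered fit (limma adjusted p = 0.674).

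Rbpj encodes the DNA-binding protein of the pathway, which represses targets until the Notch fragment arrives. Its brightest probe set, 1454896_at, gave 5531 and 5399 signal units in emN1, against 4410.5 and 3914 in anN1 and 4585 and 4575 in wild-type. Both emN1 values were above all 4 controls. The log2 difference was 0.32 (SE 0.12, interval 0.04 to 0.60), with an unadjusted p of 0.0311 and a limma adjusted p of 0.240. The group means were 5465 in emN1, 4162 in anN1 and 4579.5 in wild-type. Against anN1 alone the difference was 0.39 (SE 0.13, limma adjusted p = 0.237), and against wild-type alone 0.20 (SE 0.14, limma adjusted p = 0.647). The other Rbpj probe sets, whose groups overlapped, differed by 0.11 (1448957_at) and 0.23 (1418114_at).

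The 250 bases before the first of the 2 listed Rbpj starts, chr5:53590096-53590345 on the plus strand of GRCm38.p6 (RefSeq), are shown as those of the nuclear gene whose 2 emN1 values stood clear of all controls.
Rbpj, first start: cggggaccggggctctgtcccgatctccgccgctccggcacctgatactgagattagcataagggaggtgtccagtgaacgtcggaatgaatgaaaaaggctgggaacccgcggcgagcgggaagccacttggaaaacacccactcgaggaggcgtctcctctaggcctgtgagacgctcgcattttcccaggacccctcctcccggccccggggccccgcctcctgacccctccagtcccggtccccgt
GTGGGAA was not found there on either strand, which says only that these letters are not in this window. The region held 21 CpG dinucleotides.

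Maml1 encodes a coactivator that clamps onto the Notch fragment and Rbpj and recruits acetyltransferases. Its brightest probe set, 1426769_s_at, whose name marks probes that can also match other transcripts, gave 4702 and 5082 signal units in emN1, against 3705 and 3996 in anN1 and 4618 and 5386 in wild-type. Both emN1 values were above both anN1 values, and they lay among the wild-type values. The log2 difference was 0.22 from all controls (SE 0.15, interval -0.12 to 0.56, limma adjusted p = 0.538), 0.34 from anN1 (limma adjusted p = 0.350) and 0.03 from wild-type (limma adjusted p = 0.967). Probe set 1452188_at differed by -0.10, and 1441697_at, under the background limit on all 6 arrays, by -0.43 in the unfiltered fit (limma adjusted p = 0.876).

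The comparisons with a single kind of control gave no call on these genes either. Against anN1 alone, limma passed 0 of the 20 (5 at an unadjusted p under 0.05), where it passed 2.02% of all tested probe sets and 13.4% were under 0.05 unadjusted. Against wild-type alone it passed 0 of the 20 (2 at an unadjusted p under 0.05), beside 2.16% and 13.2% of all. These comparisons share the emN1 arrays. Between anN1 and wild-type, limma passed 0 of the 20 and 0 were under 0.05 unadjusted, beside 0.074% and 3.64% of all tested probe sets.

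The patterns were also compared over the 6 arrays with those of all other tested genes, as a description. The highest Pearson correlation of log2 signal was with Plscr1 for Psen2 (r = 0.998), with Leng9 for Rbpj (r = 0.989), with Pdzd2 for Numb (r = 0.995) and with Rrm2b for Adam10 (r = 0.999). For Psenen it was with Polr2g (r = 1.000), for Ncstn with Lhfp (r = 0.999), for Aph1a with Zfp472 (r = 0.989), for Maml1 with Cep350 (r = 0.988) and for Adam17 with Lyplal1 (r = 0.961). Each is the best of 12611 genes over 6 points that share array sets.

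Among genes that regulate the sheddases, several passed the test. Of 19 tested sheddase regulators and other ADAM genes, 4 rose in emN1, 1 fell and 14 did not pass, with a median log2 difference of 0.23, beside -0.02 over all 12611 genes and 5.41% of genes called, 3.58% higher and 1.83% lower (1 probe set a gene, here and below). This list, like the others, was chosen with earlier results of these data known, so its counts are a description and no test of the list. Timp1, an inhibitor of metalloproteases, gave 1547 and 1010.3 signal units in emN1, against 310.4 and 242 in anN1 and 263 and 298 in wild-type. It rose by 2.01 log2 units (SE 0.26, limma adjusted p = 0.00564), and its emN1 values stood well clear of all controls. Timp3, the inhibitor known to act on Adam17, gave 8378 and 9733 in emN1, against 3792 and 6919 in anN1 and 6028 and 6073 in wild-type. It rose by 0.83 (SE 0.14, limma adjusted p = 0.0178), and 2 of its 3 other probe sets passed as well, the remaining one at 0.65 (limma adjusted p = 0.268).

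Adam9, a related membrane protease, gave 9866 and 9482 signal units in emN1, against 6039 and 5860.0 in anN1 and 5159 and 5215 in wild-type. It rose by 0.77 (SE 0.11, limma adjusted p = 0.00930) with no overlap. Reck, a membrane-anchored inhibitor that acts on metalloproteases including Adam10, rose by 0.70 (SE 0.15, limma adjusted p = 0.0381), and was picked out once its values were known. Tspan10, a tetraspanin of the group that escorts Adam10 to the surface, gave 483 and 631 in emN1, against 1653 and 1952 in anN1 and 1546 and 1253 in wild-type. It fell by 1.46 (SE 0.23, limma adjusted p = 0.0127), again with no overlap. These 5 calls were lost when the first emN1 array, the second emN1 array or the first anN1 array was left out: for Timp1 the limma adjusted p was then 0.0934, 0.115 and 0.0664, and for Adam9 0.0766, 0.161 and 0.0705. The call of Reck was also lost without the first wild-type array (limma adjusted p = 0.0836) or the second anN1 array. Against anN1 alone and wild-type alone, Timp1 (limma adjusted p = 0.0205 and 0.0426) and Adam9 (limma adjusted p = 0.0339 and 0.0211) passed. Timp3 (limma adjusted p = 0.0675 and 0.0824) and Reck (limma adjusted p = 0.115 and 0.163) passed in neither. Tspan10 passed against anN1 (limma adjusted p = 0.0154) but not against wild-type (limma adjusted p = 0.0738).

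Markers of several other cell types moved in the same comparison, in which 3.58% of all genes passed as higher and 1.83% as lower. Of 8 fibroblast markers 5 rose, with a summed signal of 130398 and 107825 in emN1, 72848 and 67519 in anN1, and 65893 and 85458 in wild-type. Of 6 outer root sheath and basal markers 3 rose, with 130321 and 144029 in emN1, 73212 and 89713 in anN1, and 87519 and 84314 in wild-type. Of 7 tested immune markers 2 rose, with sums of 4973 and 5399 in emN1, 1738 and 1439 in anN1, and 1658 and 1472 in wild-type. Among smooth muscle, pericyte and endothelial markers 3 of 5 tested rose, and the sums over all 7 on the array were 40051 and 41000.1 in emN1, 22844 and 19104 in anN1, and 16132 and 15509 in wild-type arrays. The endothelial marker Pecam1 was under the background limit on all arrays. Of 8 melanocyte markers 7 fell, with 112852 and 94138 in emN1, 306130.0 and 260882 in anN1, and 209517 and 227449 in wild-type. Of 6 tested dermal papilla markers 1 rose and 2 fell. Of 9 hair matrix and shaft markers 2 rose, and of 7 inner root sheath markers 0 passed. None of the markers in the fibroblast, outer root sheath, immune and melanocyte lists was under the background limit on all arrays. Their part in the values of Timp1, Timp3, Adam9, Reck and Tspan10, or of the 9 genes, was not tested.

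**Figure D4:**
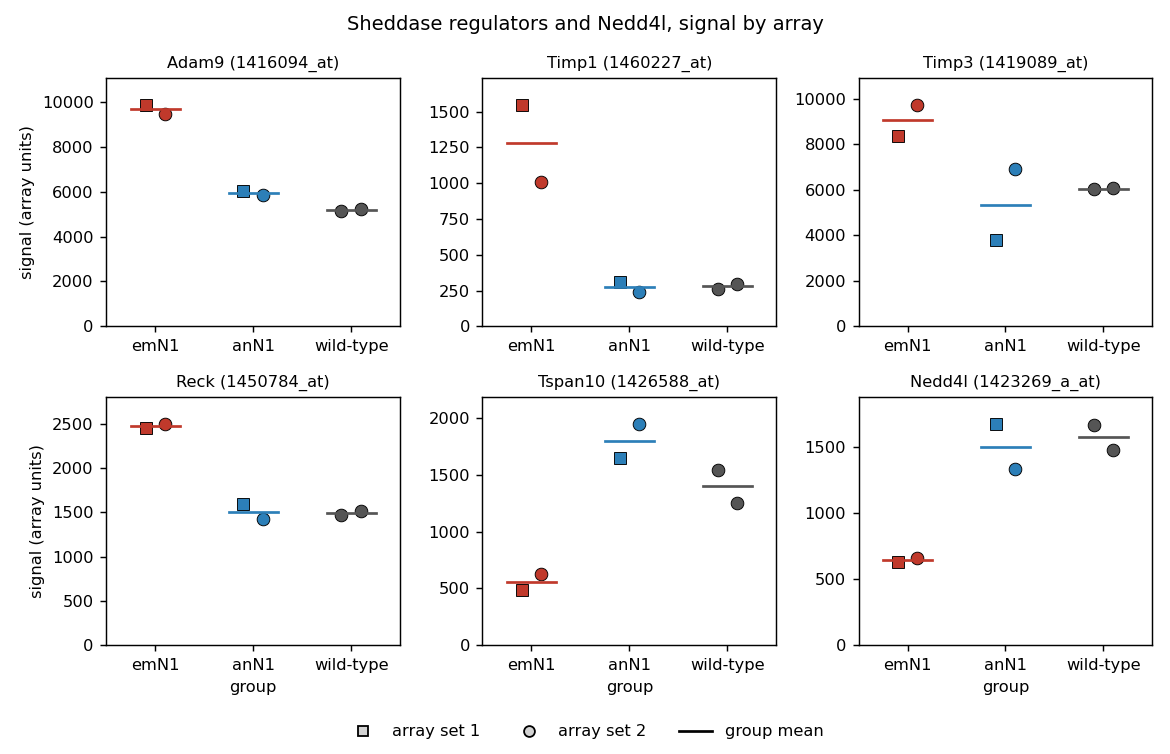
Signal by array and group for the protease gene Adam9, the sheddase regulators Timp1, Timp3, Reck and Tspan10, and the ubiquitin ligase gene Nedd4l. Values are in array units from 0, with squares for array set 1, circles for set 2 and lines for group means. Adam9, Timp1, Timp3 and Reck were higher in both emN1 arrays than in all 4 controls, and Tspan10 and Nedd4l lower.

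Of 22 tested genes of Notch endocytosis and ubiquitination, 1 fell, 0 rose and 21 did not pass, with a median of -0.06. A single call among 22 is no larger a share than the 5.41% called over all genes. The one was Nedd4l, a ubiquitin ligase of the same family as Nedd4 and Itch, with 632 and 659.9 signal units in emN1, against 1675 and 1330.2 in anN1 and 1666 and 1479 in wild-type. It fell by 1.24 log2 units (SE 0.19, limma adjusted p = 0.0105), while a second probe set for it, at -0.53, missed the threshold. Dtx4, a Deltex protein that binds Notch's intracellular part and the runner-up of this list, differed by 0.84 (limma adjusted p = 0.0833) and was likewise picked out once its values were known.

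The remaining machinery gave no calls in limma with the same adjustment. Of 8 tested genes of other nuclear complex components 0 passed (median -0.09), with Kat2a, an acetyltransferase, at -0.36 (limma adjusted p = 0.183) and Ccnc, the cyclin of the Mediator kinase, at -0.41 (limma adjusted p = 0.307). Of 13 tested Rbpj corepressor genes 0 passed (median 0.03), with Tle1, a Groucho-type corepressor, at 0.68 (limma adjusted p = 0.116) and Fhl1 at 0.40 (limma adjusted p = 0.149). Of 6 tested genes of other gamma-secretase and presenilin family components 0 passed (median -0.14), with Sppl2a, a presenilin-like protease, at 0.39 (limma adjusted p = 0.131) and Rer1, a retention factor of the early secretory route, at -0.35 (limma adjusted p = 0.238). In these 3 lists, 1 of 8, 3 of 13 and 2 of 6 genes had an unadjusted p under 0.05 in limma, beside 16.6% of all tested probe sets.

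Calls were made among receptors and among targets, in a comparison that called 5.41% of all genes, 3.58% higher and 1.83% lower. Of 12 tested receptor, ligand and receptor glycosylation genes only 1 fell, the deleted gene Notch1, by 1.55 (SE 0.35, limma adjusted p = 0.0491). That call was lost with a pseudocount of 1 (limma adjusted p = 0.0528) or without the filter on dim probe sets (limma adjusted p = 0.0571). This brighter probe set also fell against anN1 alone (log2 -1.10, limma adjusted p = 0.0282) and wild-type alone (log2 -2.23, limma adjusted p = 0.00344). Between the controls, anN1 differed from wild-type by -1.13 (limma adjusted p = 0.289). The dimmer Notch1 probe set fell by 0.96 against all controls (limma adjusted p = 0.0211). It missed the threshold against anN1 alone (limma adjusted p = 0.0846) and wild-type alone (limma adjusted p = 0.0620). Jag1, a Notch ligand picked out once its values were known, gave 15996 and 16405 signal units in emN1, against 13823 and 15195 in anN1 and 30143 and 26840.2 in wild-type. Against wild-type alone it fell in emN1 (log2 -0.77, SE 0.12, limma adjusted p = 0.0248), and anN1 differed from wild-type by -0.93 (limma adjusted p = 0.0992). Of 11 tested Notch target genes 3 fell, 0 rose and 8 did not pass, with a median of -0.32, beside -0.02 over all genes. They were Ccnd1, a G1 cyclin, by 0.99 (SE 0.13, limma adjusted p = 0.00579), Heyl by 0.87 (SE 0.19, limma adjusted p = 0.0472) and Nrarp by 0.81. The other Heyl probe sets, at -0.32 (limma adjusted p = 0.638) and -0.43 (limma adjusted p = 0.497), did not pass, and without the filter on dim probe sets the Heyl call was lost (limma adjusted p = 0.0554). Ccnd1 gave 5848 and 4287 signal units in emN1, against 10218 and 9838 in anN1 and 8269 and 9787 in wild-type, and its other 2 probe sets passed in the same direction. Bcl6, a transcriptional repressor picked out once its values were known, gave 7287 and 5348 signal units in emN1, against 3456 and 3005 in anN1 and 4128 and 3809 in wild-type. It differed from all controls by 0.77 (SE 0.17, limma adjusted p = 0.0531), and against anN1 alone it rose by 0.95 (limma adjusted p = 0.0229). Without the first emN1 or the first anN1 array the call of Ccnd1 held (limma adjusted p = 0.0460 in each case) and those of Notch1, Heyl, Nrarp and Nedd4l were lost, and without the second emN1 array all 5 were lost. Without the first wild-type array Notch1 (limma adjusted p = 0.0996) and Heyl (limma adjusted p = 0.0979) were lost.

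The 2 array sets were also compared with each other. This comparison was added after the data were seen and rests on the emN1 and anN1 arrays, which have 1 array in each set, so that set and replicate cannot be told apart. In limma with Benjamini-Hochberg adjustment 2 of the 20 probe sets were lower in set 2 than in set 1 and 0 higher, where 7.9% of all tested probe sets passed and 3.7% were lower. At an unadjusted p under 0.05 there were 12 of the 20, beside 24.5% of all. The median size of the difference was 0.53 log2 units, beside 0.34 for all tested probe sets and 0.21 for the emN1 comparison of the same 20. The 2 that passed were Aph1a 1451554_a_at, lower in set 2 (log2 -0.68, SE 0.13, limma adjusted p = 0.0253), and Psenen (log2 -0.49, SE 0.11, limma adjusted p = 0.0439). Both calls were lost when any emN1 or anN1 array was left out, with limma adjusted p between 0.194 and 0.241 for Aph1a and between 0.232 and 0.307 for Psenen, and when arrays were centred on their median (0.0598 and 0.148).

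For several genes, probe sets of the same gene differed between the sets by unlike amounts. For Rbpj the set differences were 1.29 (1418114_at, limma adjusted p = 0.0566), -0.56 (1448957_at) and -0.10 (1454896_at). For Adam10 they were 1.10 (1450104_at), 0.89 (1450105_at, limma adjusted p = 0.0526) and 0.20 (1428103_at), and for Adam17 1.03, 0.78 and -0.08. The Ncstn probe sets were alike, at 0.67 (1418570_at) and 0.66 (1444532_at). For Aph1a, beside the -0.68 of the probe set that passed, the differences were -0.18 (1424980_s_at) and -0.49 (1424979_at). For Psen2 they were 0.48 (1425869_a_at) and -0.56 (1431542_at), and for Maml1 0.11 (1426769_s_at) and 0.47 (1452188_at). The dimmer Notch1 probe set likewise differed by 0.86 (limma adjusted p = 0.0416) and the brighter by -0.16.

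RNA quality controls differed between the sets as well. The ratio of 3' to 5' beta-actin signal, which increases as RNA is degraded or copied incompletely, was 2.39 in emN1 and 2.39 in anN1 of set 2 and 2.71 and 2.66 in the wild-type arrays there, against 4.59 in emN1 and 5.64 in anN1 of set 1. The middle 18S ribosomal RNA control gave 57872, 53633, 52337 and 46819.5 signal units in set 2, against 115746 and 111195 in set 1. The 3' to 5' ratio for Gapdh overlapped between the sets. The positions of the members' probe sets along their transcripts were not used here, and the part of RNA quality in the set differences was not tested. Among the 4 arrays of set 2 alone, limma passed 0 of the 20 member probe sets between emN1 and controls (2 at an unadjusted p under 0.05), where it passed 0.685% of all tested probe sets and 12.8% were under 0.05 unadjusted.

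**Figure D5:**
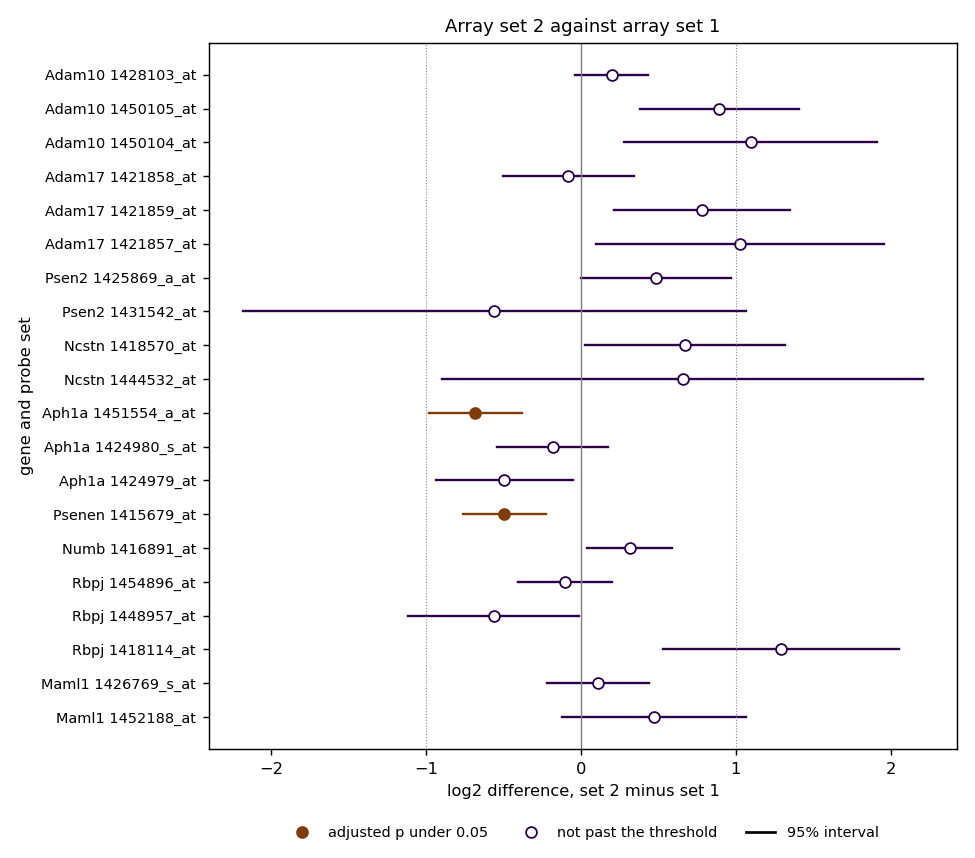
Log2 difference between array set 2 and array set 1 (x axis) for each of the 20 tested probe sets, with 95% intervals from the limma fit over 3 groups and dotted lines at 2-fold. Filled points, Aph1a 1451554_a_at and Psenen, passed the threshold, and the probe sets of Rbpj spread between -0.56 and 1.29.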

How the data were processed

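The deposited values are linear intensity, 1 value per probe set and array. The submitters' processing notes name MAS5 without version or settings. Between its 2nd and 98th percentiles each deposited array averaged 1500.0, so no rescaling was applied. No detection calls were used.

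Of 45101 probe sets, 64 controls were left out of tests. Gene symbols came from the platform's annotation (34958 with 1 symbol, 932 with several, 9211 with none); 34754 matched GRCm38.p6 by gene identifier, used for names. Signals were transformed to log2(signal + 17.8), the 10th percentile of all values, which understates changes of dim genes, and the upper 60% by mean over all arrays were kept. Limma 3.58.1 (R 4.3.3; lmFit, eBayes with an intensity trend, two-sided, Benjamini-Hochberg over 27022 probe sets, threshold 0.05) fitted emN1 against 4 controls and, separately, 3 groups, each with array set as a term (3 and 2 residual degrees of freedom). The step was tested on simulated data. Intervals are for single probe sets. Figures used matplotlib 3.10.9.

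The series' design text puts emN1 and anN1 arrays of equal replicate number in one hybridisation set, so they are paired by set. Their replicate differences correlated with r = 0.38 over 27022 probe sets, and with -0.19 and -0.02 in pairs with wild-type. In emN1 and anN1 replicate and set coincide, while both wild-type arrays are in set 2. These correlations therefore cannot tell a pairing of samples from a difference between array sets. Named were all members; from each list up to 4 called genes by size, otherwise the 2 with the smallest p; Notch1; and the most correlated gene. The members and lists were chosen with earlier results of these data known. Upstream sequences are from RefSeq, and all 9 members matched.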

Additional observations from a re-analysis of the deposited data

Results flagged for a closer look

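Among control probe sets for Cre recombinase, not used in the gene comparisons, 3 gave a mean signal over the emN1 and anN1 arrays above both wild-type arrays and the background limit of 112. Their means over the 4 emN1 and anN1 arrays were 438 (AFFX-CreX-3_at), 435 (AFFX-r2-P1-cre-3_at) and 152 (AFFX-r2-P1-cre-5_at) signal units, against at most 79.0, 29.2 and 33.4 in wild-type. Within AFFX-r2-P1-cre-5_at the second emN1 array, at 93.7, was under the limit. The remaining one, AFFX-CreX-5_at, was under it on all arrays.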

How the results depend on the processing

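No member probe set passed between emN1 and controls, anN1 or wild-type, or between anN1 and wild-type, under any alternative run (lowest adjusted p for emN1 minus controls 0.144). Of 280 alternative values for emN1 minus controls, 261 kept direction and 19, on 8 probe sets, reversed. Without the array set term (no replicate block), Adam10 1450105_at was -0.21 and Rbpj 1418114_at -0.055; with signals raised to background Ncstn 1444532_at was 0.13; with arrays centred Aph1a 1424980_s_at was -0.0086; with set 2 alone (chosen after seeing the data) Ncstn 1444532_at was 0.81 and Maml1 1452188_at 0.23. Leaving out one array in turn gave -0.033 to 0.12 for Adam10 1450105_at, -0.23 to 0.15 for Adam17 1421859_at, -0.014 to 1.82 for Psen2 1431542_at, -1.54 to 0.81 for Ncstn 1444532_at, -0.11 to 0.11 for Aph1a 1424980_s_at, -0.11 to 0.26 for Rbpj 1448957_at, -0.31 to 0.59 for Rbpj 1418114_at and -0.60 to 0.23 for Maml1 1452188_at. For emN1 minus wild-type it gave -0.082 to 0.10 for Aph1a 1451554_a_at and -0.084 to 0.14 for Maml1 1426769_s_at; with arrays centred they were -0.039 and -0.054, and Maml1 was -0.029 without the set term. For set 2 minus set 1 it gave -1.88 to 0.77 for Psen2 1431542_at and -0.46 to 1.77 for Ncstn 1444532_at. The cause was not tested.

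Counts over all probe sets moved more. For emN1 minus controls (1020) they were 0 without the intensity trend (4044 at an unadjusted p under 0.05), 286 without the replicate block, 185 with set 2 alone, and 1 to 1092 leaving out one array. For emN1 minus anN1 (545) they were 0 (3109 unadjusted), 42, 0 and 0 to 1269, and 1261 with a replicate block on these 4 arrays alone. For emN1 minus wild-type (584) they were 0 (3003 unadjusted), 215, 26 and 0 to 1375. For anN1 minus wild-type (20) they were 0 without the trend (1118 unadjusted), 42 with centring, 0 with set 2 alone and 0 to 173. For set 2 minus set 1 (2136) they were 0 without the trend (5307 unadjusted), 1187 with centring and 0 to 3807. Member calls between sets (2) were 1 without the filter, 1 with quantile normalization, 0 with centring, 0 without the trend and 0 to 4 leaving out one array. Of the 10 list genes called and named, 10 lost the call without the trend or without emN1 replicate 2, 9 (all but Ccnd1) without emN1 replicate 1, without anN1 replicate 1 or with set 2 alone, 7 without the replicate block, and at most 3 otherwise. With 6 arrays, dim probe sets near background limit what can be seen.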
